A study of Homo sapiens with 4 samples.

Results

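ALKBH3 and its partners in the repair of alkylated bases were followed in PC3 cells depleted of ALKBH3. The gene names ALKBH3, ALKBH2, ASCC1, ASCC2, ASCC3, OTUD4, MGMT and MPG were chosen for their place in this pathway, and every probe whose accession the RefSeq gene table assigned to them was taken. In all, 8 of the 34127 probes on the array were found, and they represented 7 of the 8 genes, out of 19102 genes named on the array. ALKBH3 had 2 probes and every other gene had 1. No probe was matched to ASCC1, which is not analysed here.

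PC3 is an established human prostate cancer cell line. The cells were infected for 48 h with lentivirus that carried an shRNA against ALKBH3 or a control shRNA against GFP, and puromycin selection then lasted 48 h or 96 h. One array was hybridised per combination, 4 in all, so that the 2 arrays of an shRNA differ in time point. Both groups went through infection and selection, and neither was left uninfected. The sources used here name neither the ALKBH3 shRNA sequence nor its clone, and do not say whether cultures were repeated, or where in the transcript each probe lies.

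Direct repair restores a damaged base without cutting the DNA strand. ALKBH3 and its homolog ALKBH2 are iron and 2-oxoglutarate dependent dioxygenases that oxidize the methyl group of certain methylated adenines and cytosines until it is released, ALKBH3 preferring single-stranded DNA and RNA. ASCC3 is a helicase that unwinds DNA for ALKBH3, ASCC1 and ASCC2 are further subunits of its complex, and OTUD4 is a deubiquitinase that stabilizes ALKBH2 and ALKBH3. MGMT transfers the alkyl group of a guanine onto itself and is used up in doing so, and MPG is a glycosylase that cuts out methylated purines and starts base excision repair.

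The signal given below is the log2 intensity of a probe relative to the 75th percentile of its array, and the log2 fold change is ALKBH3 shRNA minus control shRNA. The percentile lay between an intensity of 2150 and 2394 on the 4 arrays, and 67.0% to 70.9% of the probes were marked by the image software as well above background. The arrays of one time point shared a slide, so that time point and slide cannot be told apart, while the shRNAs can be compared within a slide. KRT8, KRT18 and CD44, which these epithelial cancer cells are known to express, were well above background on all 4 arrays. KLK3, which encodes prostate-specific antigen, was so on 0 of the 4.

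All 8 probes of the repair genes were well above background on all 4 arrays, each was printed as 1 spot, and no spot was marked as poor or saturated. The local background around these spots lay between 22 and 32. The software gave its own error as between 10.0% and 10.1% of the intensity for the probes other than that of OTUD4. For OTUD4 it was between 11.0% and 12.4%. Levels of different genes are not compared here, since probes bind their targets with different strength.

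ALKBH3, the target of the shRNA, was reduced on both of its probes and at both time points, to between 23.9% and 35.1% of the control signal. The probe A_23_P35989 had an intensity of 1385 on the control array and 360 on the ALKBH3 shRNA array of the 48 h pair, and of 1530 and 374 in the 96 h pair. The probe A_33_P3225250 had an intensity of 1287 and 409 in the 48 h pair and of 1259 and 452 in the 96 h pair. On both probes every control array lay well above every ALKBH3 shRNA array. The groups thus did not overlap, as was also so for 36.4% of all genes tested.

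On A_23_P35989 the mean signal was -0.62 ± 0.015 on the control arrays and -2.67 ± 0.0092 on the ALKBH3 shRNA arrays (SD, n = 2 each). Its log2 fold change was -2.03 in the 48 h pair and -2.07 in the 96 h pair, which leaves 24.5% and 23.9% of the control signal. The fit over the 4 arrays gave -2.05 (standard error 0.11, limma adjusted p = 0.228 across the probes tested). When limma was fitted with the time point as a replicate block, called the blocked fit here, the adjusted p was 0.0176.

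A_33_P3225250 represents the gene by the rule that the probe with the highest mean signal is taken, although the mean signals of the ALKBH3 probes were nearly equal. Its mean signal was -0.82 ± 0.11 on the control arrays and -2.44 ± 0.053 on the ALKBH3 shRNA arrays (SD, n = 2 each). Its log2 fold change of -1.74 in the 48 h pair and -1.51 in the 96 h pair leaves 29.9% and 35.1%. The fall was smaller on this probe than on A_23_P35989 at both time points. For the gene the fit gave -1.63, with a 95% interval from -1.95 to -1.30 (standard error 0.12, limma adjusted p = 0.253), and the adjusted p of the blocked limma fit was 0.0264.

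**Figure D1:**
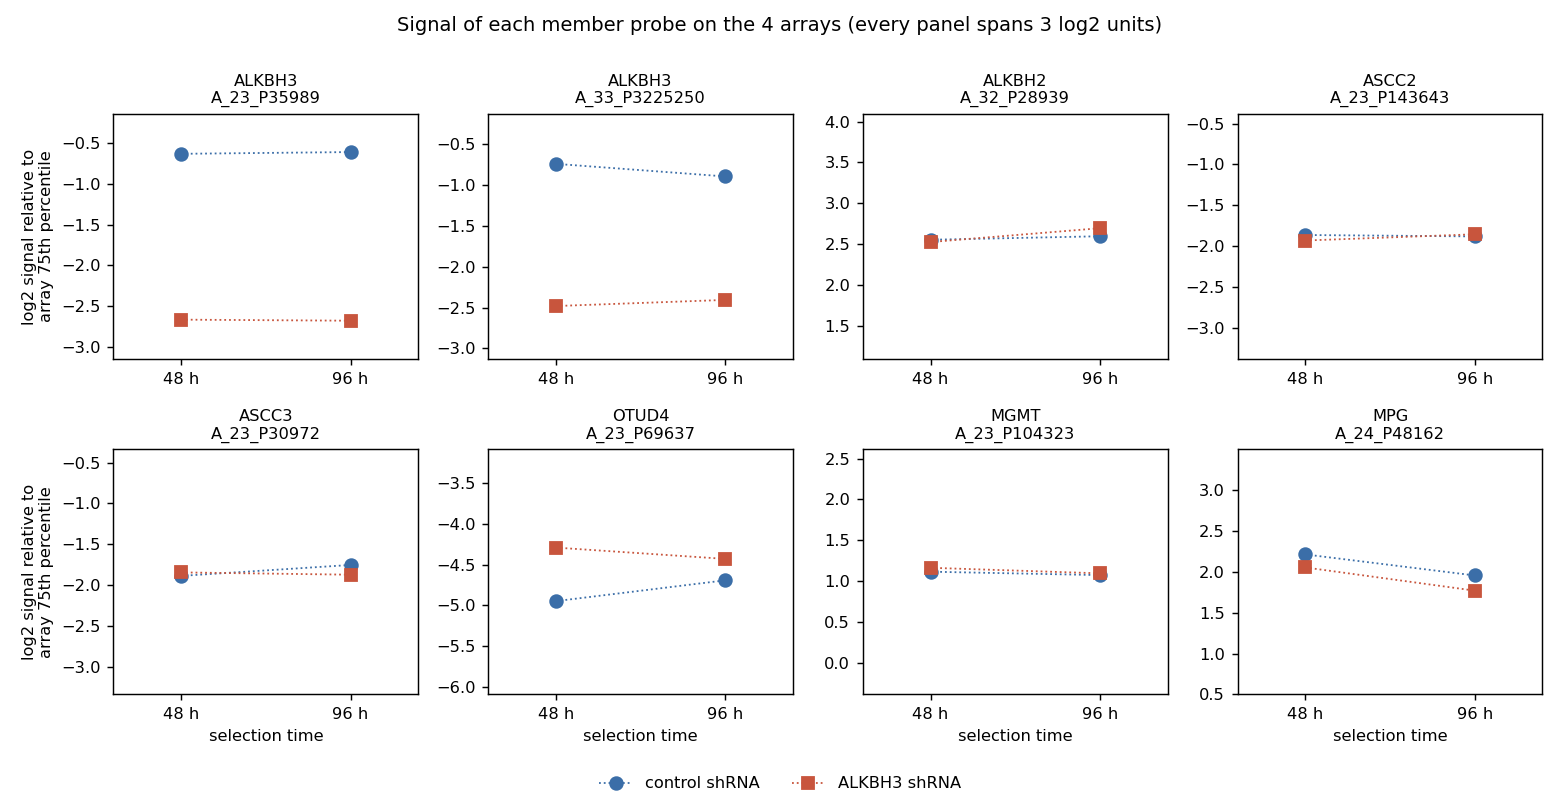
Log2 signal of the 8 probes of the repair genes relative to the 75th percentile of each array (vertical axis) at 48 h and 96 h of selection (horizontal axis), with 1 point for each array, circles for control shRNA and squares for ALKBH3 shRNA; dotted lines join the arrays of an shRNA and every panel spans the same range. The ALKBH3 probes have log2 fold changes between -2.07 and -1.51, OTUD4 is higher with ALKBH3 shRNA at both time points, and the points of ALKBH2, ASCC2, ASCC3 and MGMT lie close together.

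The cutoffs used were at least 2-fold in size together with an unadjusted limma p under 0.05. Of 14556 genes tested, 34 passed them in the lower direction (0.234%), and ALKBH3 was 1 of these. At the level of probes 54 passed (0.232%), and both ALKBH3 probes were among them. None of the 6 partners passed in either direction, where 1.04% of all genes passed as higher and 1.27% in either direction. Leaving out the control array of the 48 h pair gave 54 lower genes, that of the 96 h pair 80, and the ALKBH3 shRNA array of the 48 h pair 89, and ALKBH3 passed in each case.

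At an adjusted p of 0.05 the number of genes called by limma was 0 (0%), with 1213 (8.33%) at an unadjusted p under 0.05, ALKBH3 and OTUD4 among the latter. The blocked fit called 649 genes at the adjusted p (4.46%), 218 of them lower (1.5%), and ALKBH3 was the 1 member called. At an unadjusted p under 0.05 the blocked fit had 25.1% of all genes, and of the members ALKBH3 and OTUD4. Counted from the largest fall, ALKBH3 ranked 5 of all genes over the 4 arrays, 5 in the 48 h pair and 15 in the 96 h pair. It was 1 of 21 genes (0.144%) with at least a 2-fold fall in each pair.

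The partners were compared in the same way, to see whether depletion of ALKBH3 was accompanied by a change in the mRNA of proteins that work with it or repair similar lesions. Their median log2 fold change was 0.0070, beside -0.0030 for all genes tested, and 3 of the 6 had a value above 0 and 3 below. The median size of the log2 fold change was 0.037 for the partners and 0.12 for all genes. For all 6 partners the 95% interval lay inside a 2-fold change in either direction, with bounds from 0.650-fold to 1.80-fold. The SD between the 2 arrays of a group was between 0.012 and 0.20 for the partners. An exact permutation test of 2 arrays against 2 cannot go below a two-sided p of 0.333, so that the tests given are those of limma.

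**Figure D2:**
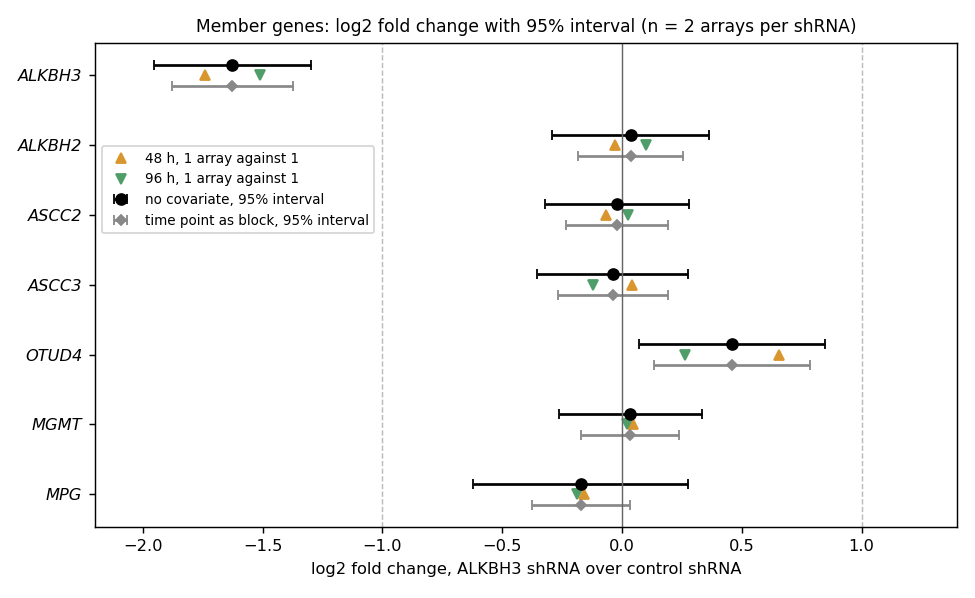
Log2 fold change of ALKBH3 shRNA over control shRNA (horizontal axis) for the 7 genes, with circles and diamonds for the fit without and with time point as a block, bars for the 95% interval (n = 2 arrays per shRNA) and triangles for each time point; dashed lines mark a 2-fold change. ALKBH3 lies at -1.63, OTUD4 at 0.46 with an interval from 0.07 to 0.85, and the intervals of the other 5 genes include 0.

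OTUD4 was the partner with the largest difference between the shRNAs. Its intensity was 69.6 on the control array and 117 on the ALKBH3 shRNA array of the 48 h pair, and 90.4 and 111 in the 96 h pair. The ALKBH3 shRNA array was the higher one in both pairs and the groups did not overlap, which was so for 36.4% of all genes tested. The mean signal was -4.82 ± 0.18 on the control arrays and -4.36 ± 0.098 on the ALKBH3 shRNA arrays (SD, n = 2 each). The log2 fold change was 0.66 and 0.26 in the pairs, larger in size than 94.3% of all genes in the first and than 74.4% in the second.

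In the fit OTUD4 had a log2 fold change of 0.46, or 1.37-fold, with a 95% interval from 0.07 to 0.85 (standard error 0.15, limma unadjusted p = 0.0296, adjusted p = 0.539). The blocked limma fit gave an adjusted p of 0.117, so that OTUD4 was not called in either. After normexp background correction the log2 fold change was 0.27 (limma unadjusted p = 0.0812). The unadjusted limma p was 0.171 without the control array and 0.133 without the ALKBH3 shRNA array of the 48 h pair, 0.0582 without the ALKBH3 shRNA array of the 96 h pair and 0.0391 without its control array, where the log2 fold change was 0.59. In these fits the single array left in a group is assumed to vary like those of the other group. The gene table also lists a pseudogene of OTUD4, and whether the probe binds its transcript was not tested.

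ASCC3, the helicase, had an intensity of 581 on the control array and 636 on the ALKBH3 shRNA array of the 48 h pair, and of 694 and 653 in the 96 h pair. The groups overlapped, and the log2 fold changes of 0.042 and -0.12 lay on opposite sides of 0. The fit gave -0.038, with a 95% interval from -0.35 to 0.28 (standard error 0.12, limma adjusted p = 0.985).

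ASCC2, the subunit that binds ubiquitin chains, had an intensity of 590 and 599 in the 48 h pair and of 635 and 661 in the 96 h pair, the control array first. The groups overlapped, with log2 fold changes of -0.067 and 0.026. The fit gave -0.021 with a 95% interval from -0.32 to 0.28 (standard error 0.11, limma adjusted p = 0.990).

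ALKBH2, which shares the dioxygenase reaction of ALKBH3, was measured at an intensity of 12609 on the control array and 13152 on the ALKBH3 shRNA array of the 48 h pair, and of 14142 and 15493 in the 96 h pair. All 4 arrays were close, the groups overlapped, and the log2 fold changes were -0.028 and 0.099. The fit gave 0.036, with a 95% interval from -0.29 to 0.37, that is from 0.816-fold to 1.29-fold (standard error 0.12, limma adjusted p = 0.985).

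MGMT, the guanine alkyltransferase, had an intensity of 4658 on the control array and 5118 on the ALKBH3 shRNA array of the 48 h pair, and of 4925 and 5115 in the 96 h pair. Its log2 signal was 1.12 and 1.16 in the first pair and 1.07 and 1.10 in the second, and the groups overlapped. The log2 fold change was 0.048 and 0.022 in the pairs and 0.035 in the fit, with a 95% interval from -0.26 to 0.33 (standard error 0.11, limma adjusted p = 0.985).

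MPG, the glycosylase for methylated purines, had an intensity of 9972 on the control array and 9492 on the ALKBH3 shRNA array of the 48 h pair, and of 9081 and 8168 in the 96 h pair. The ALKBH3 shRNA array was the lower one in both pairs, with log2 fold changes of -0.16 and -0.19, but the groups overlapped, since the time points differed more than the shRNAs. The fit gave -0.17, with a 95% interval from -0.62 to 0.27 (standard error 0.17, limma adjusted p = 0.902). The blocked limma fit narrowed the interval to between -0.38 and 0.03, with an adjusted p of 0.256.

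**Figure D3:**
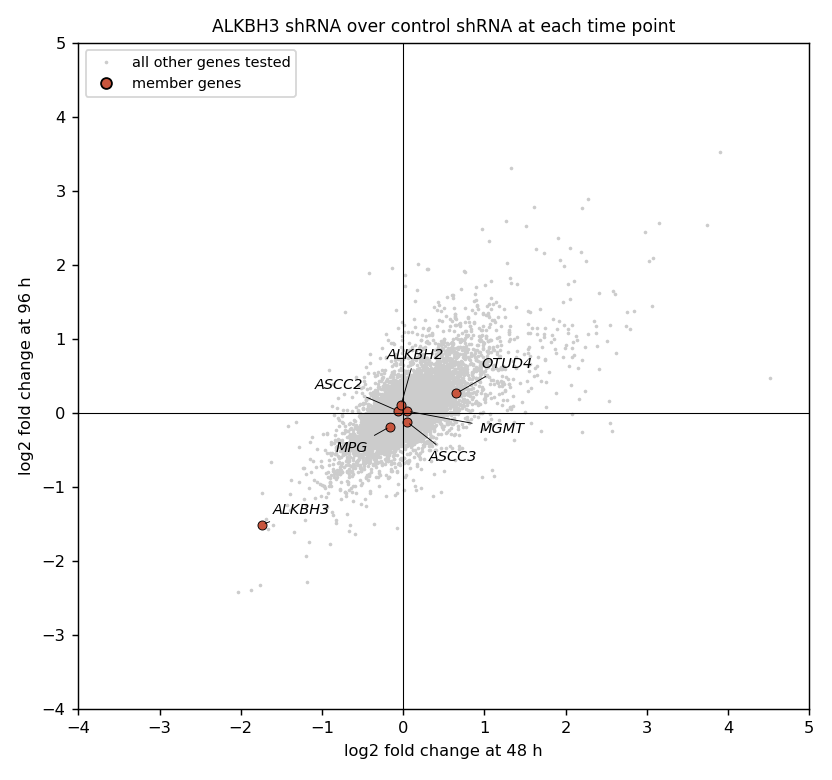
Log2 fold change of ALKBH3 shRNA over control shRNA at 48 h (horizontal axis) and 96 h (vertical axis), 1 array against 1 array at each time point, for the 14556 genes tested, with the repair genes in colour. ALKBH3 lies among the largest falls at both time points, at -1.74 and -1.51. OTUD4 lies at 0.66 and 0.26 and MPG at -0.16 and -0.19. ALKBH2, ASCC2, ASCC3 and MGMT lie nearer to 0 than these on both axes.

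The pairs of the 2 time points were set beside each other without a test, since each holds 1 array per shRNA. For ALKBH3 the log2 fold change of the 96 h pair minus that of the 48 h pair was 0.23 on A_33_P3225250 and -0.035 on A_23_P35989, so that the probes ran in different directions. For the partners this difference was between -0.39 for OTUD4 and 0.13 for ALKBH2. The median size of the log2 fold change over all genes tested was 0.15 in the 48 h pair and 0.14 in the 96 h pair.

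The time points were compared in a limma fit with both shRNA and time point. In it 0 of the 7 members passed an adjusted p of 0.05 for time, where 12.8% of all genes did. With 7 genes a count of 0 cannot be told apart from that share. MPG was the 1 member with an unadjusted p under 0.05, at 0.0206, where 35% of all genes were. Its log2 difference between 96 h and 48 h was -0.27, with a 95% interval from -0.48 to -0.07 (limma adjusted p = 0.0865), made up of -0.26 in control cells and -0.28 in ALKBH3 shRNA cells. Over all genes the median size of this difference was 0.18 in control cells and 0.19 in ALKBH3 shRNA cells. ALKBH3 itself had a log2 difference of -0.040, with a 95% interval from -0.29 to 0.21. The other 5 genes lay between -0.055 for MGMT and 0.11 for ALKBH2.

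Genes at the neighbouring steps of alkylation repair were grouped into 5 lists of 44 genes in all, of which 43 were tested. APLF, a scaffold at broken DNA ends, had a probe but did not pass the filter on dim signal. None of the 43 passed the cutoffs in either direction, a count of 0, where 1.27% of all genes did. With 43 genes this count cannot be told apart from that share. Above 0 were 19 and below 0 were 24, and their median log2 fold change was -0.0094. In limma 1 of the 43 had an unadjusted p under 0.05, beside 8.33% of all genes, and the blocked fit called 0 at the adjusted p, beside 4.46%.

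Of the other AlkB homologs, which are ALKBH1, ALKBH4, ALKBH5, ALKBH6, ALKBH7, ALKBH8 and FTO, 6 of 7 had a log2 fold change below 0, with a median of -0.13. For all genes tested the median was -0.0030. Under the alternative settings the median of these homologs lay between -0.18 and -0.06, with 4 to 7 of them below 0. The -0.18 came from median centring, where the median of all genes was -0.058. ALKBH7, a mitochondrial member of the family, had the lowest value, at -0.21 (standard error 0.14, limma adjusted p = 0.816), and ALKBH1 the highest, at 0.03.

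Of the 7 factors associated with the ASCC complex or OTUD4, 6 had a log2 fold change below 0, with a median of -0.055. The median of all genes tested was -0.0030, and the list was not tested as a set. Under the alternative settings the median of these factors lay between -0.11 and -0.013, with 4 to 6 of them below 0. The -0.11 came from median centring, where the median of all genes was -0.058. USP9X, a deubiquitinase that OTUD4 brings to ALKBH3, had the lowest, at -0.19 (standard error 0.11, limma adjusted p = 0.765). UBE2N, which builds ubiquitin chains of the kind that ASCC2 binds, had the highest, at 0.15.

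Of the 10 other DNA glycosylases, 4 were above 0 and 6 below, with a median log2 fold change of -0.0090, which lay between -0.14 and 0.12 when single arrays were left out, with 3 to 9 of the genes below 0. OGG1, which removes oxidized guanine, was the list gene with an unadjusted p under 0.05. Its log2 signal was 0.28 and 0.24 on the control arrays and -0.18 and -0.09 on the ALKBH3 shRNA arrays. The groups did not overlap, which was so for 36.4% of all genes tested. The log2 fold change of OGG1 was -0.46 and -0.33 in the pairs and -0.39 in the fit (standard error 0.11, limma unadjusted p = 0.0219, adjusted p = 0.495), and the adjusted p of the blocked limma fit was 0.0811. MUTYH, which removes adenine opposite oxidized guanine, had the highest value, at 0.13.

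The strand completion factors of base excision repair act after MPG. Of the 11 tested, 7 were above 0 and 4 below, with a median log2 fold change of 0.044. After median centring this median was -0.011, beside -0.058 for all genes. It lay between -0.094 and 0.10 when single arrays were left out, with 2 to 9 of the genes below 0. The values ran from -0.12 for the endonuclease APEX2 to 0.17 for APTX, which clears abortive ligation ends. Of the 8 mismatch repair genes, whose products recognize the base pairs left by alkylated guanine, 6 were above 0 and 2 below. Their median was 0.011, and -0.044 after median centring, beside -0.058 for all genes in that setting. It lay between -0.093 and 0.14 when single arrays were left out, with 2 to 5 of the genes below 0. MSH6, a mismatch recognition protein, had the lowest value, at -0.03.

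**Figure D4:**
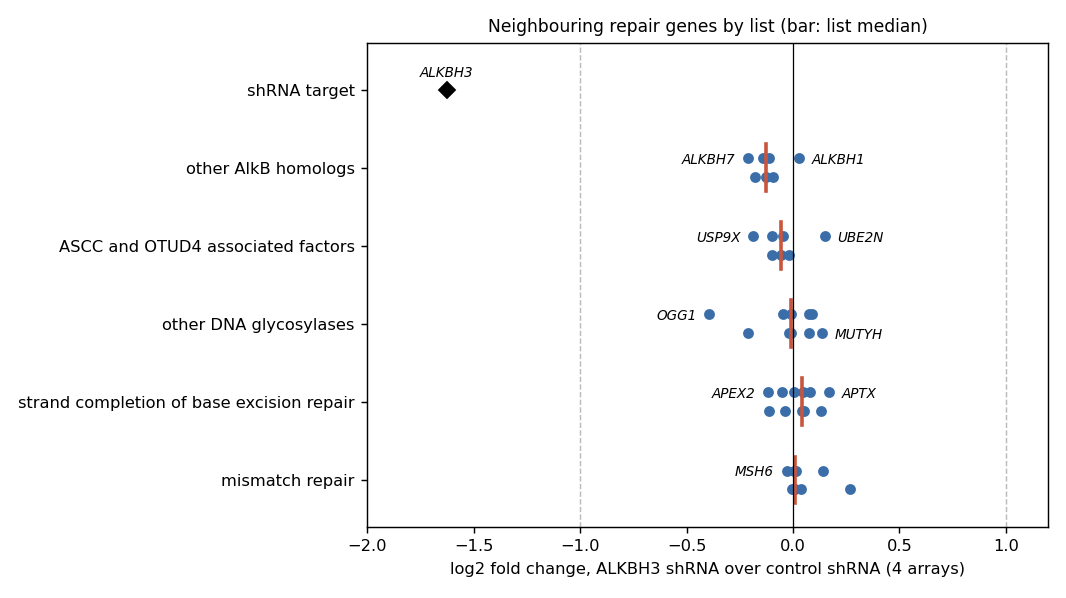
Log2 fold change of ALKBH3 shRNA over control shRNA over the 4 arrays (horizontal axis) for the 43 tested genes of the 5 lists and for ALKBH3, with 1 point for each gene, a bar for the median of the list, names for its lowest and, except in mismatch repair, its highest gene, and dashed lines at a 2-fold change. All 43 genes lie inside a 2-fold change, the lowest being OGG1 at -0.39, and ALKBH3 lies at -1.63.

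The genes outside the pathway whose signal followed that of ALKBH3 most closely were ranked by the Euclidean distance between log2 profiles over the 4 arrays, each taken relative to its own mean. The closest 5 were SH3PXD2A, NPY2R, GABBR2, SLC38A11 and NOX5, at distances from 0.290 to 0.504, beside 0.444 between the ALKBH3 probes. SH3PXD2A, a scaffold protein of invadopodia, had a log2 fold change of -1.43 in the 48 h pair and -1.25 in the 96 h pair. In the same order GABBR2, a subunit of the GABA-B receptor, had -1.39 and -1.31, SLC38A11, a putative amino acid transporter, had -1.20 and -1.94, and NOX5, an NADPH oxidase, had -1.22 and -1.17. For NPY2R, a neuropeptide Y receptor, the signal was well above background on 1 of the 2 ALKBH3 shRNA arrays, and no fold change is given. These genes were picked for their likeness to ALKBH3 on the same arrays, so that their values are a description.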

How the data were processed

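RNA of 4 PC3 samples was hybridised to single-colour Agilent arrays. The authors deposited the intensity of each spot as written by Agilent Feature Extraction (version 10.7.3.1 in the file headers), with background subtraction and detrending within the array and none of the normalization across arrays. A second deposited file holds the authors' log2 values after normalization with limma, which served as an alternative. Here log2 intensities were set relative to the 75th percentile over the 43118 spots that are not controls. Between 180 and 379 outlier spots per array were removed, and replicate spots were averaged. Testing was limited to probes with at least 0.5 of their spots marked well above background on each array of at least 1 shRNA. The spot files hold accessions and no gene names, so 24910 of 34127 probes were named through RefSeq (GRCh38.p14). Where several tested probes belonged to a gene, the brightest on average was used.

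The test was lmFit and eBayes of limma 3.58.1 in R 4.3.3, with Benjamini-Hochberg adjustment over everything tested. The block is the time point, since its arrays shared a slide, and deviations from the group means correlated at 0.703 within a time point over 14556 genes, which are not independent. The p-values measure only the spread between these arrays, and the small number of arrays limits their precision. In the fit without the block, and in the SDs, that spread lies between the 48 h and the 96 h array of an shRNA. It therefore includes the differences of time point and slide. In the blocked fit the spread of a gene is the difference between its log2 fold changes in the 48 h and 96 h pairs. A fold change that differs between the time points therefore counts there as spread. In both fits limma also draws on the spread of the other genes. The text names the members, the lowest and highest gene of each list where none passed the cutoffs, and the 5 closest profiles. Some genes that these rules name are not reported here. Members, lists and tests were chosen with earlier results of these data known. The alternatives were other scalings, normexp background correction (offset 50, on the median pixel), the authors' values, other filters, the mean over probes, the block and leaving out each array.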

Additional observations from a re-analysis of the deposited data

Results flagged for a closer look

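For 3 partners the log2 fold change ran in opposite directions in the 48 h pair and the 96 h pair of arrays. It was -0.028 and 0.099 for ALKBH2, -0.067 and 0.026 for ASCC2, and 0.042 and -0.12 for ASCC3. Each pair holds 1 array per shRNA, so that these differences were not tested. All 6 values are smaller in size than the median over all genes in the same pair, 0.15 and 0.14.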

How the results depend on the processing

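Under the 14 alternatives ALKBH3 kept its direction and stayed past the cutoffs, and 0 partners and 0 of the list genes tested passed them in either direction. In the fits without an array, the single array left in a group is assumed to vary like those of the other group. The log2 fold change of ALKBH3 lay between -1.94, with the authors' values, and -1.61, and between -2.05 and -1.55 when single arrays were left out. The probe that represents it changes to A_23_P35989 after normexp, with the authors' values and without either ALKBH3 shRNA array. On A_33_P3225250 itself the range was -1.68 to -1.39, with -1.49 from the authors' values, and -1.70 to -1.55 when single arrays were left out, and on A_23_P35989 it was -2.10 to -1.80 and -2.06 to -2.04. Its limma adjusted p lay between 0.0264, with time point as a replicate block, and 0.562, and the block changed the call of no other member. MPG and OTUD4 kept their sign. After median centring ALKBH2 turned to -0.0196 and MGMT to -0.0204, and ASCC2 turned to 0.0205 after normexp background correction, to 0.0301 with quantile normalization added and to 0.0315 with the authors' values. When single arrays were left out, the log2 fold change lay between -0.049 and 0.12 for ALKBH2, -0.059 and 0.017 for ASCC2, -0.11 and 0.028 for ASCC3, and -0.31 and -0.031 for MPG. Median centring shifts the log2 fold change of every gene by the same amount, and the median over all genes moved from -0.0030 to -0.058. With an array left out, the shRNAs also differ in their mix of time points. Causes beyond these were not tested. Over all genes, 151 higher genes became 63 and 66 after normexp without and with quantile normalization, 88 with the authors' values, 276 with no filter, 100 with a filter on all 4 arrays, and between 149 and 381 with single arrays left out. The 34 lower genes became 22 and 21 after normexp without and with quantile normalization, 56 with no filter, and between 30 and 89 with single arrays left out. The 2 arrays per shRNA limit every value.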
